A study of Mus musculus with 4 samples.

Results

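The 10 genes described here encode the interleukin 7 receptor pathway of a mouse large pre-B cell line, from the receptor to its first target genes. They are Il7r, Il2rg, Jak1, Jak3, Stat5a, Stat5b, Cish, Socs2, Socs3 and Pim1, chosen by gene symbol from the 23420 rows of each count file, and all 10 had a row and passed the filter on low counts. The libraries labelled shMyb came from cells of an Irf4/8-/- line, which lacks the transcription factors Irf4 and Irf8, that received a short hairpin RNA against Myb from a retrovirus, with green fluorescent protein as its reporter. The shLuc libraries came from the same line with a hairpin against luciferase, a target that mouse cells do not have. Both groups were grown on OP9 stromal cells, kept for 72 hours after transduction in medium with interleukin 7 at 10 ng/ml, and sorted for fluorescence. Each group had 2 libraries, from separate sets of 12 wells of 1 cell line. All p-values rest on the spread between these duplicates, estimated for each gene with information shared across the tested genes. Both groups carry the same Irf4 and Irf8 deficiency, and interleukin 7 was supplied in the medium.

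Interleukin 7 is a growth factor that stromal cells of the bone marrow make. Its receptor pairs the Il7r chain with the common gamma chain, encoded by Il2rg. The kinases JAK1, which sits on the Il7r chain, and JAK3, which sits on the gamma chain, then phosphorylate STAT5A and STAT5B, which enter the nucleus and switch on target genes. Among those targets, Cish, Socs2 and Socs3 encode SOCS proteins that damp the same pathway, and Pim1 encodes a serine/threonine kinase of growth and survival. In large pre-B cells this signal drives division, and its loss goes with the exit to the small pre-B stage.

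Facts of the whole series come first. The libraries held 36573743 to 44682954 counts. Myb, the hairpin's target, was at 617 and 639 CPM (counts relative to the size of the library, scaled by TMM, a method that equalises libraries on most of their genes) in the libraries labelled shMyb, against 616 and 600 CPM in shLuc. Its log2 fold change was 0.05 (SE 0.04, edgeR adjusted p = 0.28), so no fall of the target transcript was measured. Directions given below therefore compare libraries by label, without a drop in Myb RNA behind the label. Neither the assignment of the labels nor the level of the Myb protein was tested. With scaling by totals only, Myb passed the test upward (0.11, adjusted p = 0.0109), and after removal of the trend with expression it did so again (0.17, adjusted p = 0.00023). Of 12610 tested genes 62.2% were called, at an adjusted p below 0.05. All 12 B-lineage markers were detected and tested, and their group means ran from 43.0 CPM (Rag1 in shLuc) to 2862 CPM (Cd24a in shLuc). Markers of other cell types were present as well, and 8 of the 10 tested myeloid markers were higher in the libraries labelled shMyb; their values stand after those of the wider pathway.

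Sequences that STAT5 recognises have the palindromic form TTCNNNGAA, in which N is any base, and promoters of the 10 genes were searched for these letters. RefSeq windows of 300 bases on GRCm38.p6 (250 bases before a gene's start and 50 after it) were found for 9 of the 10 genes, 12 windows in all, and none was found for Socs2. The letters occurred in windows of 3 genes, Cish, Il7r and Socs3, and the 3 windows with a match are printed here. They belong to the 3 genes that were called lower, and a link between the letters and the fall was not tested. The capitals mark each match of 9 bases, and each window is written 5′ to 3′ on the strand of its gene.
Cish, chr9:107296409-107296708, plus strand: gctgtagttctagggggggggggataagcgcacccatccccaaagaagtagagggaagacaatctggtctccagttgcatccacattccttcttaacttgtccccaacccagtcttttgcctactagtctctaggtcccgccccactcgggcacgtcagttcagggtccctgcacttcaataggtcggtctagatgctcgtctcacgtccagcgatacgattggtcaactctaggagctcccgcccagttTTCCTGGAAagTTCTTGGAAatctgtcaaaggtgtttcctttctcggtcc
Il7r, chr15:9529827-9530126, minus strand: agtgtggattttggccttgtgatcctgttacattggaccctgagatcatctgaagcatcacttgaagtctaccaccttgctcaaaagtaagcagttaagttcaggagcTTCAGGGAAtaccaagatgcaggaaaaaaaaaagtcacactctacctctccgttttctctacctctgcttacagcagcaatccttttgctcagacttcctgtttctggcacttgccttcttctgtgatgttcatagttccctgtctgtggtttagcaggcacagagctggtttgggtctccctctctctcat
Socs3, chr11:117969317-117969616, minus strand: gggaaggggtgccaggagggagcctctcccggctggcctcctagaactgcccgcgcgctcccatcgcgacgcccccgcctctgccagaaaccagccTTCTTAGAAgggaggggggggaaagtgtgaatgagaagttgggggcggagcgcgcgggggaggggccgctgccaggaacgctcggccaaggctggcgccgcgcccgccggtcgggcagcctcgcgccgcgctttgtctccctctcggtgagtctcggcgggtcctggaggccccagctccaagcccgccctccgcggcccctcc
The Cish window held 2 matches, TTCCTGGAA from base 1 after the start and TTCTTGGAA from base 12, with 2 bases between them. The Il7r match, TTCAGGGAA, began 142 bases before the start used for its window, and the Socs3 match, TTCTTAGAA, began 154 bases before its own. All 3 windows lie inside the GENCODE gene spans given below, which reach further upstream than these starts. By those spans the matches lie within the genes. Of 32851 promoter windows in the genome, 8.3% held the motif at least once and 0.457% held it at least 2 times. Among tested genes with the motif in a window 31.7% were called lower, against 32.4% of tested genes whose windows lacked it. A match is a description of letters and not a measured binding site.

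Of the 10 genes, 6 were higher in the libraries labelled shMyb, 3 were lower, and Socs2 did not pass the test. Among all tested genes 30.6% were called higher and 31.7% lower. The groups did not overlap in 9 of the 10 genes, against 82.1% of tested genes. None of the 10 was past 1.5-fold, a size that 17.4% of all tested genes reached while called. The 10 genes all averaged above 50 CPM in both groups, and of the 4706 tested genes that averaged 50 CPM or more, 71.2% were called and 3.63% were both called and past 1.5-fold. The median size of the log2 fold change was 0.18 over the 10 genes and 0.24 over all tested genes.

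**Figure D1:**
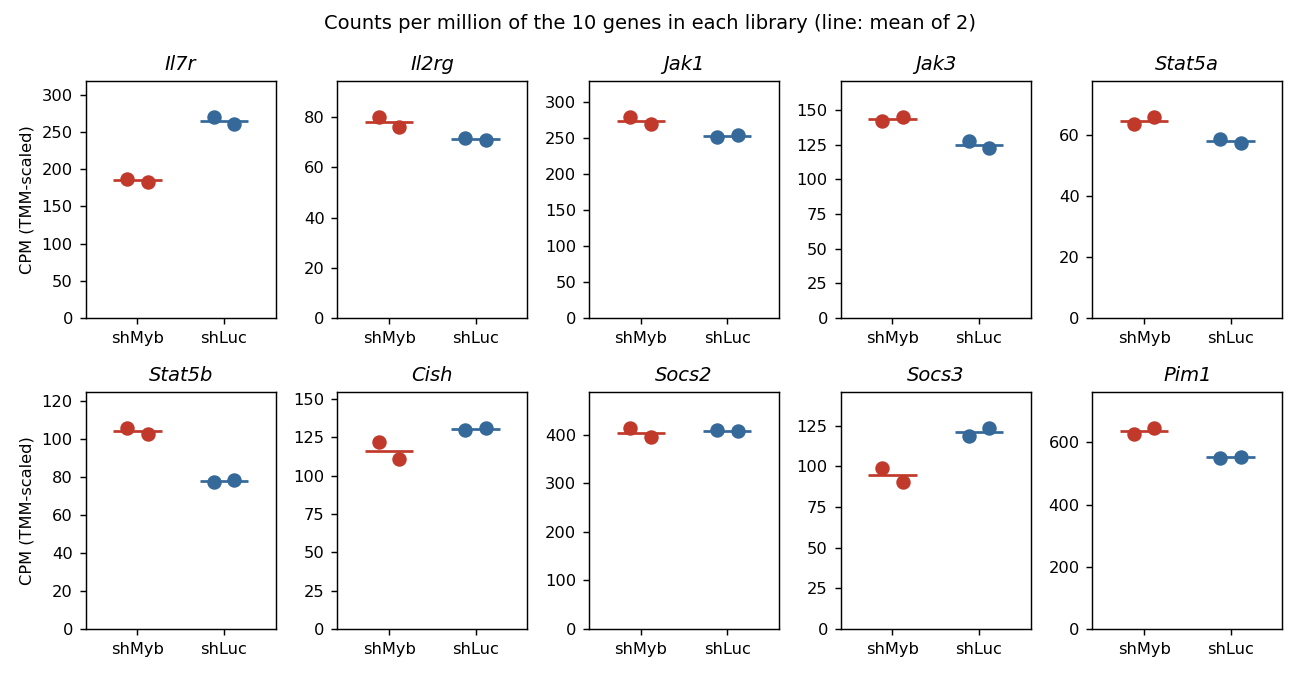
CPM (TMM-scaled, linear axis from 0) of each of the 10 genes in the 2 libraries labelled shMyb (red) and the 2 shLuc libraries (blue), with a line at each group mean. Il7r and Socs3 sit lower in shMyb, Stat5b sits higher, and the Socs2 points of the groups overlap.

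The receptor chains moved in opposite directions. Il7r (chr15:9505788-9530176, minus strand), which binds interleukin 7 and sets which cells respond to it, was at 187 and 183 CPM in the libraries labelled shMyb, against 270 and 261 CPM in shLuc. Both shMyb libraries lay well below both shLuc libraries, on 6882 to 11358 counts each. Means were 185 ± 2.52 CPM in shMyb and 265 ± 6.33 CPM in shLuc (SD, n = 2 each), which is -0.52 on the log2 scale (SE 0.04, 95% interval -0.59 to -0.44, edgeR adjusted p = 7.3e-12). In linear terms the shMyb level was 0.698 of the shLuc level, the largest change among the 10 genes in this fit. Stat5b changed more with library totals alone (0.48, against -0.46 for Il7r) and marginally more after removal of the trend with expression, and Socs3 changed more after removal of the GC and length trend (-0.46, against -0.45 for Il7r). The Il7r call and its direction were the same under all 16 alternatives, between -0.55 and -0.45.

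Il2rg (chrX:101264378-101268255, minus strand), the gamma chain shared with receptors for several other interleukins, was at 79.9 and 76.2 CPM in the libraries labelled shMyb, against 71.7 and 70.9 CPM in shLuc. The libraries of the groups did not overlap, but the gap was small. The log2 fold change was 0.13 (SE 0.04, edgeR adjusted p = 0.0071), and the call ended with DESeq2 (adjusted p = 0.0948) and without shLuc replicate 1 (0.0546), shLuc replicate 2 (0.071) or shMyb replicate 1 (0.104). A transcript annotated as Gm20489, on the same strand, shares 42.01% of the 50-base windows of the longest Il2rg transcript and has no row of its own, so the Il2rg level is uncertain.

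The ratio of the receptor chains within a library does not depend on how libraries are scaled. Per kilobase of exon, Il7r over Il2rg was 1.20 and 1.23 in the libraries labelled shMyb, against 1.93 and 1.88 in shLuc. The difference in its log2 was -0.65, and the libraries of the groups lay far apart compared with the gap between duplicates. With 2 libraries against 2, an exact permutation test of such a ratio cannot go below p = 0.3333, so no p is given.

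Both receptor kinases were slightly higher. Jak1 (chr4:101152367-101265282, minus strand) was at 279 and 269 CPM in the libraries labelled shMyb, against 251 and 254 CPM in shLuc (log2 fold change 0.12, SE 0.04, edgeR adjusted p = 0.0063). Jak3 (chr8:71676296-71690575, plus strand), whose expression is largely limited to blood cells, was at 142 and 145 CPM in the libraries labelled shMyb, against 128 and 122 CPM in shLuc (0.20, SE 0.04, edgeR adjusted p = 7.5e-05). Neither gene's groups overlapped. The Jak1 call ended without shLuc replicate 1 (adjusted p = 0.108) or shMyb replicate 1 (0.0855). The Jak3 value turned to -0.07 (adjusted p = 0.0961) after removal of a trend with GC content and length, and its longest transcript had the highest GC content of the 10, 61.0%. Jak3 also shares 404 exon bases with Insl3, on the same strand, and reads there could be lost or counted elsewhere. Insl3 had 36 and 27 counts in the libraries labelled shMyb and 19 and 20 in shLuc. Jak1 over Jak3 per kilobase was 1.46 and 1.38 in the libraries labelled shMyb and 1.46 and 1.54 in shLuc, which overlap.

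The genes of the STAT5 pair, neighbours on chromosome 11 with 8626 bases between them, differed in how far they moved. Stat5b (chr11:100780731-100850724, minus strand) was at 106 and 103 CPM in the libraries labelled shMyb, against 77.4 and 78.4 CPM in shLuc. The groups were well apart, at means of 104 ± 2.23 CPM in shMyb and 77.9 ± 0.735 CPM in shLuc (SD, n = 2 each). Stat5b thus rose by 0.42 on the log2 scale (SE 0.04, with 95% limits of 0.34 and 0.50, edgeR adjusted p = 9.9e-10), and it was called higher under all 16 alternatives. Stat5a (chr11:100859351-100885169, plus strand) was at 63.6 and 65.8 CPM in the libraries labelled shMyb, against 58.8 and 57.2 CPM in shLuc. This smaller gap gave a log2 fold change of 0.16 (SE 0.04, edgeR adjusted p = 0.0025). The Stat5a call ended with DESeq2 (adjusted p = 0.0514) and without shLuc replicate 2 (0.0502), and after removal of the GC and length trend the value was -0.07 (adjusted p = 0.139).

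Stat5b over Stat5a, per kilobase of exons merged over transcripts, was 2.14 and 2.01 in the libraries labelled shMyb. In shLuc it was 1.70 and 1.77, with no overlap and a difference of 0.26 in the log2. The size of this ratio depends on the length used, but the difference between the groups does not. Per kilobase of the longest transcript, Stat5b and Stat5a were nearly level in shLuc, at means of 14.9 and 14.7 CPM. By that length Stat5b was still above Stat5a in the libraries labelled shMyb. The genes are similar in sequence. Of the 50-base windows in the longest Stat5a transcript 10.77% also occur in Stat5b, and 11.77% of those in Stat5b occur in Stat5a. Reads from these stretches could be split or lost, and both levels are uncertain to that extent. Stat5a also overlaps 72 exon bases of Stat3, which lies on the opposite strand.

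The SOCS genes did not move as a group. Socs3 (chr11:117966079-117970047, minus strand), an inhibitor that binds JAK kinases and receptors of the interleukin 6 type, was at 98.8 and 90.6 CPM in the libraries labelled shMyb, against 119 and 124 CPM in shLuc. The duplicates differed from each other by less than the groups did. Means were 94.7 ± 5.84 CPM in shMyb and 121 ± 3.33 CPM in shLuc (SD, n = 2 each), a log2 fold change of -0.36 (SE 0.04, 95% interval -0.44 to -0.27, edgeR adjusted p = 1.2e-07), and it was called lower under all 16 alternatives.

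Cish (chr9:107296026-107302784, plus strand), a classic early target of STAT5, was at 122 and 111 CPM in the libraries labelled shMyb, against 130 and 131 CPM in shLuc. The higher shMyb library lay nearer to the shLuc libraries than to its own duplicate, and the groups did not overlap. Cish thus fell by 0.17 on the log2 scale (SE 0.04, with 95% limits of -0.25 and -0.08, edgeR adjusted p = 0.0014). It stayed called under all 16 alternatives, but its size was -0.10 without shMyb replicate 2 (adjusted p = 0.0468) and with library totals alone, and -0.28 after removal of the GC and length trend. Socs2 (chr10:95385362-95417180, minus strand), a feedback inhibitor best known from growth hormone signalling, was at 414 and 395 CPM in the libraries labelled shMyb, against 409 and 409 CPM in shLuc. The shMyb libraries lay on either side of the shLuc ones. The log2 fold change was -0.01 with a 95% interval of -0.09 to 0.06 (edgeR adjusted p = 0.74), and after removal of the trend with expression it was called higher at 0.08 (adjusted p = 0.0373). Of the 50-base windows in the longest Socs2 transcript 7.23% also occur in Gm9847 or Gm8000, which have no row, so its level is uncertain to that extent. Exons of Cish overlap antisense and pseudogene transcripts, and how counting treated strand is not given in the sources used here.

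Pim1 (chr17:29490753-29496112, plus strand) went the other way from Cish and Socs3. It was at 627 and 646 CPM in the libraries labelled shMyb, against 550 and 554 CPM in shLuc, with both shMyb libraries higher. This was a rise of 0.21 on the log2 scale (SE 0.04, with 95% limits of 0.13 and 0.28, edgeR adjusted p = 3.1e-05). It was called higher under all 16 alternatives, at 0.32 after removal of the trend with expression and 0.12 after removal of the GC and length trend. An antisense transcript overlaps 488 of its exon bases, so its count may include reads from the other strand.

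**Figure D2:**
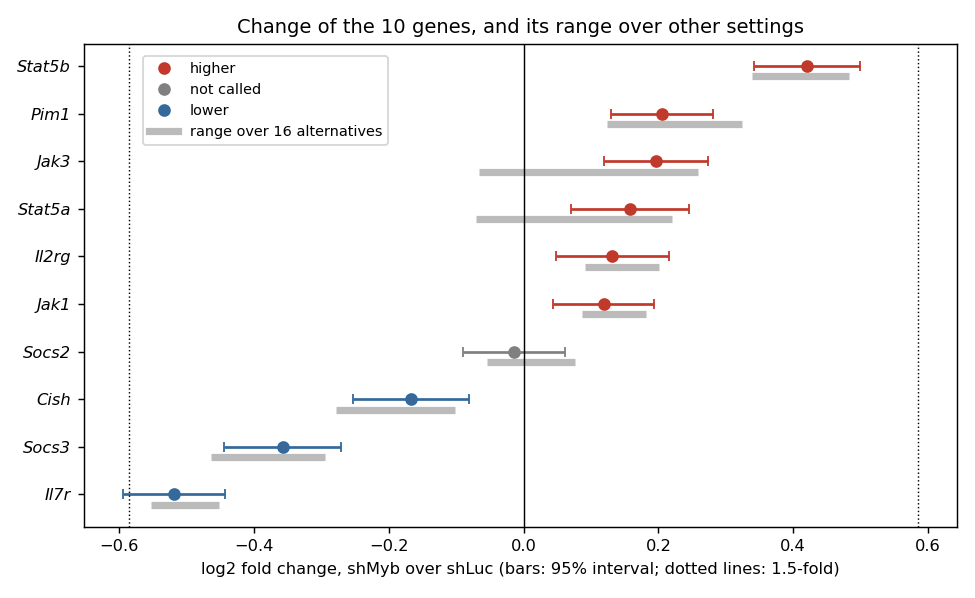
Log2 fold change (shMyb over shLuc) of each of the 10 genes with its 95% interval, coloured by the edgeR call, with a grey bar for the range over 16 alternative settings and dotted lines at 1.5-fold. Il7r lies lowest at -0.52 and Stat5b highest at 0.42, and the grey bars of Jak3, Stat5a and Socs2 cross 0.

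Levels of different genes were compared per kilobase of exon, with exons merged over transcripts. Pim1 was the highest of the 10, at 189 ± 4.16 CPM per kilobase in the libraries labelled shMyb and 164 ± 0.737 in shLuc (SD, n = 2 each). Stat5a was the lowest, at 9.07 ± 0.219 in shMyb and 8.13 ± 0.156 in shLuc. In the libraries labelled shMyb the order from high to low was Pim1, Socs2, Il7r, Jak1, Socs3, Il2rg, Jak3, Stat5b, Cish and Stat5a. There Socs3 (34.2 and 31.3) overlapped Il2rg (33.5 and 31.9), and Stat5b (19.1 and 18.5) overlapped Cish (19.0 and 17.2). In shLuc the order was Pim1, Il7r, Socs2, Socs3, Jak1, Il2rg, Jak3, Cish, Stat5b and Stat5a. By merged exons Socs2 (42.9 ± 0.0537) and Socs3 (42.0 ± 1.15) differed there by less than 1 SD of Socs3. These near ties depend on the length used. Per kilobase of the longest transcript, Socs2 was at 96.4 and Socs3 at 47.5 in shLuc, at ranks 2 and 5. By that length Cish ranked 8 and Stat5b 9 in the libraries labelled shMyb, and Il2rg ranked 5 and Socs3 6. Pim1 stayed the highest and Stat5a the lowest in both groups.

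Il7r was at 39.7 ± 0.541 CPM per kilobase in the libraries labelled shMyb and 56.9 ± 1.36 in shLuc (SD, n = 2 each). It ranked 3 in shMyb and 2 in shLuc. Per kilobase of the longest transcript it ranked 4 in shMyb, below Jak1, and 3 in shLuc, below Socs2.

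**Figure D3:**
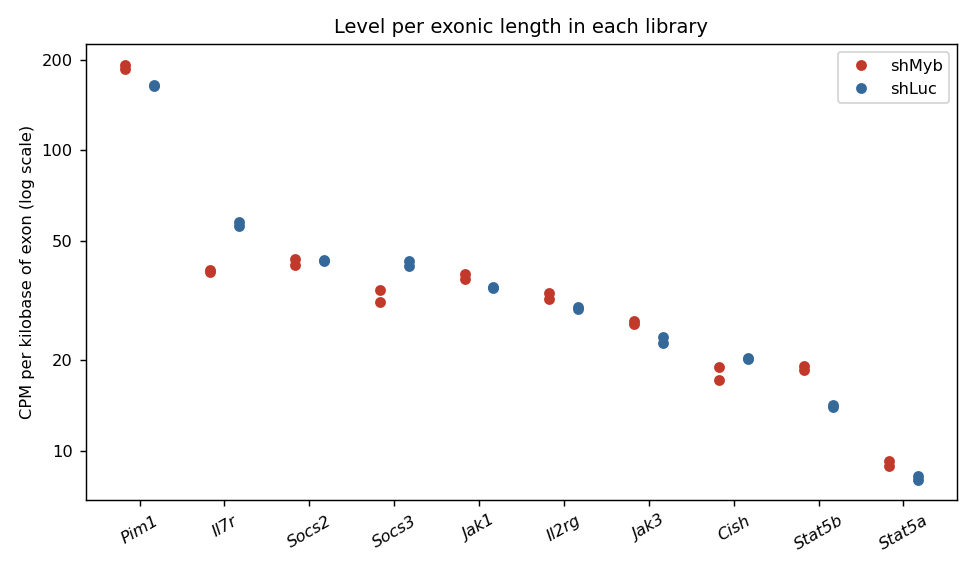
CPM per kilobase of merged exon on a log axis for the 10 genes in each library labelled shMyb (red) and each shLuc library (blue), ordered by the shLuc mean. Pim1 stands above the others in both groups and Stat5a below them, and Il7r is the gene whose points are farthest apart among those that fell.

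The genes whose profile over the 4 libraries was most like that of Il7r were Celsr1, Lactb2, Abcg1, Fyn and Atp2b2. Likeness was the root mean square difference of centred log2 CPM, among 8352 other genes averaging 10 CPM or more, and it ran from 0.016 for Celsr1 to 0.019 for Atp2b2. Within a difference of 0.05 there were 159 genes. For Cish the nearest were Nt5dc1, Prpf4, Golph3, BC048403 and Nupl1, at 0.0074 to 0.010, and 1106 genes lay within 0.05. With 4 libraries in 2 groups such likeness mostly restates a similar fold change.

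The wider pathway was described with 10 lists of genes from textbook roles, which hold 67 genes beside the 10. All lists were chosen with earlier results of these libraries known, so their counts are no independent evidence of a direction. Of these 65 were tested, and 36 were higher in the libraries labelled shMyb (55.4%), 6 were lower and 23 were not called, where 30.6% of all tested genes were higher and 31.7% lower. Their median log2 fold change was 0.21, against 0.0048 over all tested genes. Of the 65, 9 were called and past 1.5-fold (13.8%), against 17.4% of all tested genes. After removal of the GC and length trend 33 were higher and 13 lower.

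Most other receptor chains of the gamma chain family were higher. Of 8 tested receptor genes of that family (with Crlf2, the receptor chain for thymic stromal lymphopoietin that pairs with Il7r) 5 rose, Il2rg among them, Il7r and Il15ra (-0.25) fell, and 1 was not called. Over all tested genes the shares were 30.6% higher and 31.7% lower. The Il15ra call ended with library totals alone (adjusted p = 0.0847), with DESeq2 (0.0997), and without shLuc replicate 1 (0.184) or shMyb replicate 1 (0.083), which left 1 lower gene in the list. Il4ra, the interleukin 4 receptor chain, rose to 25.0 ± 1.05 CPM in the libraries labelled shMyb, against 11.6 ± 0.257 CPM in shLuc (SD, n = 2 each; log2 fold change 1.11, SE 0.07, edgeR adjusted p = 3.3e-13). Il21r rose by 0.86 and Crlf2 by 0.45 on the log2 scale. Il2ra, which forms the high-affinity interleukin 2 receptor and is a surface marker of pre-B cells, rose by 0.88 to 287 and 282 CPM in the libraries labelled shMyb, against 154 and 155 CPM in shLuc. Il2rb, which the interleukin 2 receptor needs for signalling, had 2 and 1 counts in the libraries labelled shMyb and 0 and 1 counts in shLuc, too few for the test. The ligand gene Il7 had 14 and 22 counts in the libraries labelled shMyb and 15 and 19 in shLuc, and Tslp had 0 counts in all 4, which allows up to 0.0689 to 0.0799 CPM per library by counting error alone.

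The other JAK and STAT genes were mostly higher too. All 4 JAK genes were called higher, with Jak2 at a log2 fold change of 0.43 (SE 0.04) and Tyk2 at 0.23 (SE 0.04), but the Tyk2 call ended after removal of the GC and length trend (0.02, adjusted p = 0.613), where 2 of the 4 were higher. Of 7 STAT genes 6 were higher and none was lower. The shares over all tested genes were 30.6% higher and 31.7% lower. All of these JAK and STAT genes averaged above 50 CPM, where 71.2% of tested genes were called in either direction. Stat2, which acts in the type I interferon response, rose by 0.58 (SE 0.04), Stat3 by 0.28, Stat6 by 0.19 and Stat4 by 0.12. The Stat4 call ended with DESeq2 (adjusted p = 0.144) and without shLuc replicate 1 (0.06, adjusted p = 0.367).

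Inhibitors of the pathway moved unevenly. Of 8 SOCS box genes 1 rose, Cish and Socs3 fell, and 5 were not called, but 4 were lower after removal of the GC and length trend. The riser was Socs5, an inhibitor linked to interleukin 4 and epidermal growth factor signalling, at 29.4 and 30.5 CPM in the libraries labelled shMyb, against 16.5 and 15.2 CPM in shLuc (log2 fold change 0.92, SE 0.06, edgeR adjusted p = 2.9e-12). Socs1, a direct inhibitor of JAK kinases, was at -0.06 (adjusted p = 0.28), and was called lower after removal of the GC and length trend (-0.17, adjusted p = 0.00299). Of 13 other brakes on the pathway 7 rose, 1 fell and 5 were not called. For either list, the shares over all tested genes were 30.6% higher and 31.7% lower. Ptpn6, which encodes the phosphatase SHP-1, rose to 168 and 161 CPM in the libraries labelled shMyb, against 99.2 and 97.7 CPM in shLuc (0.74, SE 0.04). Sh2b3, the adaptor LNK, rose by 0.52, Pias3, an inhibitor of STAT3, by 0.58, and Ptprc, the phosphatase CD45, by 0.35. The 1 lower call was that of Usp18 (-0.53, adjusted p = 0.0409), at 51 and 51 counts in the libraries labelled shMyb and 82 and 79 in shLuc. It ended under 8 of 16 alternatives, among them DESeq2 (adjusted p = 0.20), the replicate block (0.0837), and leaving out shLuc replicate 1 (0.145), shMyb replicate 1 (0.143) or shMyb replicate 2 (0.114).

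Genes downstream of STAT5 went in both directions, in shares near those of all tested genes. Of 13 genes reported as STAT5 targets in lymphoid cells, Cish, Socs2, Socs3 and Pim1 among them, 4 rose, 5 fell and 4 were not called, at a median of -0.04. Over all tested genes 30.6% were called higher and 31.7% lower. Beside Cish and Socs3, the cell growth gene Myc fell by 0.57 on the log2 scale (SE 0.04) and the cyclin genes Ccnd3 and Ccnd2 by 0.39 and 0.13. Beside Pim1, its relative Pim2 rose by 0.24 (a call that ended with DESeq2, adjusted p = 0.0572), Il2ra rose by 0.88, and Bcl2l1, an inhibitor of apoptosis, rose by 0.23. The Ccnd2 call ended with library totals alone (-0.06, adjusted p = 0.10), after removal of the trend with expression (-0.04, adjusted p = 0.233), and when shMyb replicate 2 was left out (-0.09, adjusted p = 0.0791). The Ccnd3 value ran from -0.61 after removal of the GC and length trend to -0.22 after removal of the trend with expression.

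The phosphoinositide 3-kinase arm, which the same receptor can engage and which holds FOXO factors out of the nucleus, had 10 of 17 genes higher, 1 lower and 6 not called, at a median of 0.18. All tested genes were 30.6% higher and 31.7% lower. Irs2, an adaptor of insulin and interleukin 4 receptors, rose to 10.4 ± 0.0855 CPM in the libraries labelled shMyb, against 3.24 ± 0.0217 CPM in shLuc (SD, n = 2 each; log2 fold change 1.67, SE 0.11, edgeR adjusted p = 1.9e-12). Its relative Irs1 fell by 0.81, the single gene of the arm that fell. Pik3ap1, the B cell adaptor BCAP, rose by 0.58, the regulatory subunit gene Pik3r2 by 0.48, and Inpp5d, the phosphatase SHIP1 that opposes the arm, by 0.32. After removal of the GC and length trend 4 genes of this list were lower.

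A further list held 11 genes: Foxo1 and Foxo3, and genes known as FOXO targets or to rise in pre-B cells when interleukin 7 is withdrawn. Of the 11, 9 rose, none fell and 2 were not called, at a median of 0.29. Among all tested genes 30.6% were higher and 31.7% lower. Il7r, which fell, was not put in this list, and Foxo1, Foxo3 and Il2ra are also counted in other lists above. Klf2, a factor of quiescence and trafficking, rose by 1.43 (SE 0.08), the cyclin G2 gene Ccng2 by 0.32 and Cdkn1b, the cell cycle inhibitor p27, by 0.31. Bcl6, a repressor that STAT5 is known to hold down, rose by 0.83, on 236 and 217 counts in the libraries labelled shMyb and 128 and 151 in shLuc. This list, like the others, was chosen with earlier results of these libraries known and is no independent evidence of its direction.

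**Figure D4:**
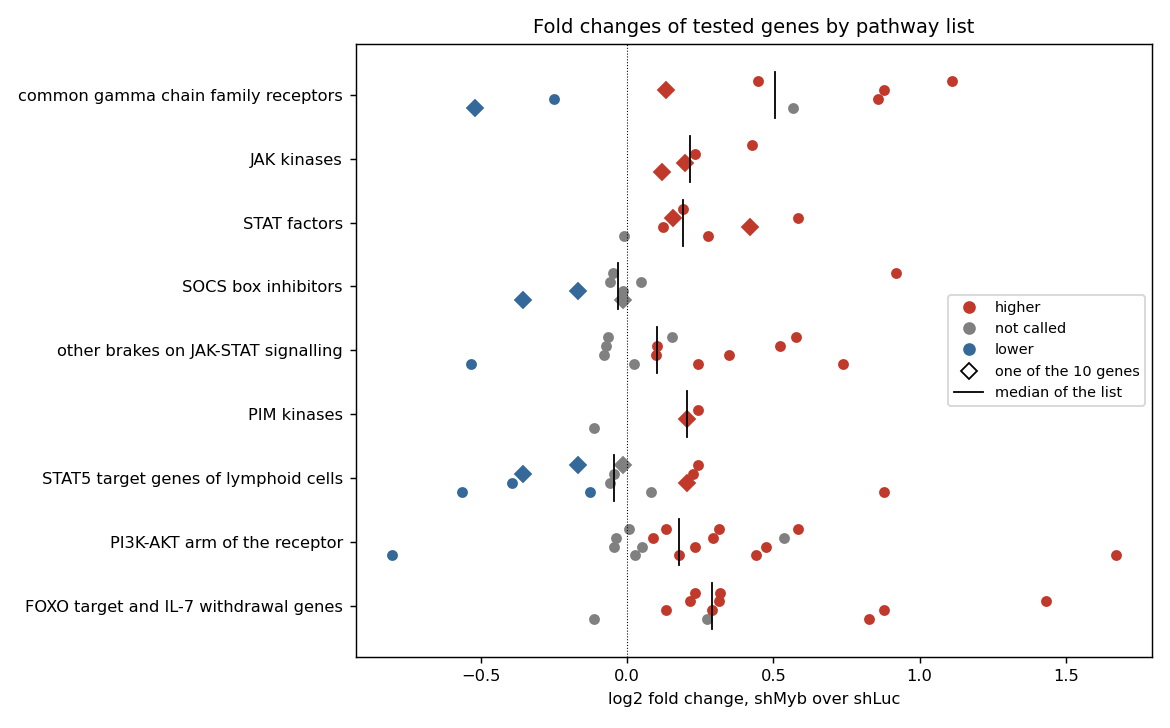
Log2 fold change (shMyb over shLuc) of every tested gene in 9 pathway lists, coloured by the edgeR call, with diamonds for the 10 genes and a bar at each list median; a gene can stand in several lists. The receptor list runs from Il7r at -0.52 to Il4ra at 1.11, the JAK and STAT genes lie mostly above 0, and the STAT5 targets lie on both sides.

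Markers of other cells were read in the same libraries, since several of the genes above are also expressed by myeloid cells, and in bulk RNA fewer cells of a type cannot be told apart from less RNA per cell. Of 14 myeloid markers 10 were tested, 8 rose and none was called lower, where 30.6% of all tested genes were higher and 31.7% lower. The 14 summed to 40.4 and 39.4 CPM in the libraries labelled shMyb, against 17.9 and 16.6 CPM in shLuc. The number that rose was 5 without shLuc replicate 2, 5 without shMyb replicate 2, 4 with DESeq2 and 4 with the 1 CPM filter. Ctss, which B cells express too, averaged 28.1 CPM in shMyb and 11.3 CPM in shLuc and made up most of the sum. Cd68 averaged 2.84 CPM in shMyb and 1.83 CPM in shLuc, a smaller log2 fold change of 0.64. The integrin gene Itgam averaged 3.09 CPM in shMyb and 1.08 CPM in shLuc (log2 fold change 1.51). Cd14 averaged 1.40 CPM in shMyb and 0.423 CPM in shLuc, and Cebpa 0.940 CPM in shMyb and 0.279 CPM in shLuc. Csf1r, the macrophage colony-stimulating factor receptor, was the 1 tested marker below 0 (-0.40, adjusted p = 0.20). It had 40 and 31 counts in the libraries labelled shMyb and 47 and 55 in shLuc. Elane had 0 counts in all 4 libraries. After removal of the trend with expression 5 myeloid markers were higher, and Csf1r was called lower (-0.76, edgeR adjusted p = 0.0159). All tested myeloid markers but Ctss averaged below 10 CPM, where the median log2 fold change of all tested genes was 0.31. The 15 markers of the stromal feeder summed to 52.0 and 58.9 CPM in the libraries labelled shMyb and 72.9 and 59.0 CPM in shLuc, with 2 higher and 3 lower of 12 tested; the higher count was 4 without shLuc replicate 1 and 1 without shLuc replicate 2 or shMyb replicate 2. The 10 T cell markers summed to 119 and 112 CPM in the libraries labelled shMyb and 98.1 and 100 CPM in shLuc, nearly all of it Lck, and which cells gave the Lck reads was not tested. Cd4, Cd8a, Cd8b1 and Themis had 0 counts in all 4 libraries. The 7 erythroid markers with a row summed to 6.54 and 9.19 CPM in the libraries labelled shMyb and 4.48 and 1.81 CPM in shLuc. Most of that was the globin gene Hbb-bs, at 6.18 and 8.57 CPM in shMyb and 4.23 and 1.49 CPM in shLuc. Hbb-bs was the 1 erythroid marker tested. It was not called (edgeR adjusted p = 0.20), but some alternatives, limma-voom among them, called it higher. The B-lineage list had 5 higher and 5 lower of 12; the lower count was 3 without shLuc replicate 2, without shMyb replicate 2, with the replicate block and with library totals alone. The part of these other cells in the changes of Il4ra, Ptpn6, Socs3 and the other genes was not tested.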

How the data were processed

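Raw read counts per gene symbol, 1 file per library, were deposited by the authors. FastQC, STAR, HTSeq, DESeq2 and mm10 are named, per the submitters' processing notes, without versions; annotation, strand setting and filters were not stated. Rows whose 25 symbols had become dates were kept but not named.

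Genes kept by filterByExpr (minimum count 10, 12610 of 16832 with a count) were scaled by TMM and tested with edgeR 4.0.16 in R 4.3.3 (robust quasi-likelihood fit on group). The code was also run on counts simulated from the spread that the fit itself estimated. Such a run checks the code and not the p-values of these duplicates. Benjamini-Hochberg adjustment ran over all tested genes, called below 0.05. The SE is the log2 fold change over the square root of F. Duplicates differed beyond counting noise (chi-square per degree of freedom 4.23 in shMyb and 3.78 in shLuc), and the limit for a count of 0 (3 counts) covers counting error only. Positions, exon lengths and shared 50-base windows come from GENCODE M21 (GRCm38, which is mm10), promoters from RefSeq (GRCm38.p6).

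The members and lists were chosen with earlier results of these data known. Named beside the 10 genes are Myb, up to 4 called genes with the smallest p per list, the 5 nearest profiles of Il7r and of Cish, and the highest markers; Il15ra, Il2rb, Usp18, Ccnd2, Irs1, Bcl6, Socs1, Rag1, Itgam, Cd14, Cebpa, Csf1r, the markers at 0 and genes named as not called were added after their values were seen. Some genes of the lists are counted but not reported here by name. Alternatives were RLE scaling, library totals alone, no filter, a 1 CPM filter, robust=FALSE, DESeq2 1.42.0, limma-voom (limma 3.58.1), a replicate block, leaving out each library, adjusted p below 0.01, loess removal of the trend with expression, loess removal of the GC and length trend (known for 99.07% of tested genes) and, added after seeing the data, a crossed block.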

Additional observations from a re-analysis of the deposited data

How the results depend on the processing

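Under the 16 alternatives the number of the 10 genes called lower was 3 throughout, none of the 10 was past 1.5-fold, and the number called higher ran from 4 to 7. It was 4 with DESeq2, after removal of the GC and length trend, and without shLuc replicate 1, shLuc replicate 2 or shMyb replicate 1. The log2 fold change of Socs2 changed sign with library totals alone (0.048), after removal of the trend with expression (0.076), and without shMyb replicate 2, where it was 0.017 in a range of -0.054 to 0.017 over the fits that left out a library. Socs1 changed sign with library totals alone too (0.0048). Jak3 (-0.066) and Stat5a (-0.071) changed sign after removal of the GC and length trend, and the cause was not tested. Of the other pathway genes 3 were lower with library totals alone and 13 after removal of the GC and length trend, against 6. All tested genes had 7849 calls, 5896 with DESeq2 and 6626 to 7481 without a library. With library totals alone 60.1% of calls were higher, against 49.1%, and the median of all tested genes was 0.067, against 0.0048; of the 10 genes 6 were then higher and 3 lower, as before. Fold changes also depended on level. Their median was 0.31 below 10 CPM (3965 genes), -0.11 between 300 and 1000 CPM (544 genes) and -0.245 above 1000 CPM (75 genes). Same-numbered libraries did not deviate together (correlation -0.252 across genes), so the numbers are not taken as pairs. With 2 libraries per group, that value equally means that opposite-numbered libraries deviated together to that extent, and its origin was not tested. The replicate block gave 7341 calls, with 6 of the 10 genes higher and 3 lower. The crossed block, which joins opposite-numbered libraries, gave 8593, against 7849 without a block.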
